A study of Mus musculus with 4 samples.

Results

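The amino acid stress response that ATF4 directs was examined in NIH/3T3 cells, an immortalised line of mouse fibroblasts, through 10 genes chosen by symbol: *Atf4*, *Atf5*, *Ddit3*, *Trib3*, *Chac1*, *Asns*, *Psat1*, *Phgdh*, *Mthfd2* and *Slc7a5*. They were represented by 14 of the 34200 transcripts in the deposited table and by 11 of its 21945 gene identifiers, because *Ddit3* stands under a pair of identifiers. Knockdown (KD) cells received *Setd2* siRNA and wild type (WT) cells Scrambled siRNA, both at 10 nM, and polyadenylated RNA was taken 48 h later for 2 KD and 2 WT libraries. SETD2 deposits H3K36me3 along transcribed genes. All libraries came from 1 cell line, and a transient knockdown leaves some of the target in place.

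When amino acids run short or unfolded proteins collect in the endoplasmic reticulum, kinases phosphorylate the translation factor eIF2α. Bulk translation then falls, while the mRNA of *Atf4* is translated better, a control that depends on short open reading frames in its leader. ATF4, a bZIP transcription factor, binds composite elements shared with C/EBP proteins and switches on amino acid synthesis, amino acid uptake and, under lasting stress, genes of cell death. Since control of ATF4 is in large part translational, the mRNA of its targets is a common readout of the response.

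The files used here hold 1 mean and 1 variance for each transcript over all 4 libraries, on the natural log scale. The columns that compare KD with WT are the study's own results and were not used, so no direction, fold change or p-value between KD and WT is given, and the depth of each library is unknown. A level below is the geometric mean over the 4 libraries in normalised estimated counts, that is the exponential of the deposited mean minus 0.5. A spread is the standard deviation over the 4 libraries in log2 units, the square root of the deposited variance. It holds differences between KD and WT, differences between replicates, and errors of counting and read assignment together. These sources cannot be told apart from 1 value.

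The variance over libraries still sets firm limits on the single libraries. With 4 values, the highest lies above the lowest by at least 1.73 and at most 2.45 standard deviations, and the mean of any 2 libraries cannot differ from the mean of the other two by more than the smaller of these limits. The difference between the KD and WT means was therefore bounded in size for each transcript, without its direction. For *Setd2*, the targeted gene, only the first transcript in order of identifier was taken, and levels were not summed over the gene. The level of this transcript was 1844 normalised estimated counts and its spread 1.15 log2 units, above 99.6% of transcripts of similar level. The highest library was between 3.99-fold and 7.07-fold above the lowest, and the KD and WT means of this transcript differed by no more than 3.99-fold. The pooled variance does not show which libraries were low, so these columns alone do not check the labels. Of the fibroblast markers *Col1a1*, *Col1a2*, *Col3a1*, *Vim*, *Pdgfrb* and *Thy1*, 6 of 6 were present, at 3083 to 273156 normalised estimated counts. Of 7 epithelial, blood and endothelial markers, *Epcam* had no transcript in the table and the other 6 lay between 22.5 and 343 normalised estimated counts.

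Composite elements bound by ATF4 were searched in RefSeq promoters of GRCm38.p6, each 300 bases long, from 250 bases before to 50 bases from the start site onward. The letters TGATGNAA were searched on both strands, where N is any base. Promoters were available for 9 of the 10 genes, with *Slc7a5* named only, and 3 of these 9 genes (33.3%) held the letters in at least 1 promoter. The same held for 435 of 12845 genes of the table with a promoter (3.39%), and 3.97% of all 32817 promoters held them. The 3 windows around these matches are shown, written on the strand that reads TGATG, with the match in capitals.

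Asns, chr6:7693214-7693243, minus strand: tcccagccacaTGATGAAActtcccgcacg
Chac1, chr2:119351038-119351067, minus strand: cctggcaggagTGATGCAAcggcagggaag
Trib3, chr2:152344028-152344057, plus strand: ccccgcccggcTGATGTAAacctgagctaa

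In *Asns* the match began 23 bases before the RefSeq start site on the strand of the gene. In *Chac1* it lay on the opposite strand, 193 bases before the RefSeq start site, and in *Trib3* on the opposite strand, 14 bases past it. The GENCODE starts of the leading transcripts give other sides for 2 of these genes. The *Asns* match lies within ENSMUST00000031766.11, which starts at 7693254. The *Trib3* match lies before the start of ENSMUST00000040312.6 at 152344032. The promoters of *Atf4*, *Ddit3*, *Phgdh* and *Mthfd2* and both promoters of *Atf5* and *Psat1* had no match in these windows, which says only that these letters were absent there. Among 48 other genes of the pathway with a promoter, from the lists described below, 11 (22.9%) held the letters. They included *Slc7a11*, with 2 matches, and *Nupr1*, *Fgf21*, *Herpud1*, *Pck2*, *Pycr1*, *Got1*, *Slc1a4* and *Jdp2* with 1 each. *Atf3* and *Vldlr* also held 1 each but had no transcript in the deposited table. A match of letters is a description and not evidence of binding.

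All 10 genes were well expressed. With the transcripts of a gene added up, their levels ran from 4227 to 36833 normalised estimated counts, against a median of 221 over all genes, and the lowest of them stood above 87.0% of all genes. Together they made up 0.238% of the summed level of all transcripts. Per kilobase of transcript, which allows genes to be compared, *Atf4* was highest with 17569.9 normalised estimated counts per kilobase, followed by *Psat1* with 14090.1 and *Phgdh* with 11813.5. *Atf5* (6811), *Asns* (6404), *Ddit3* (5677), *Slc7a5* (4879) and *Mthfd2* (4542.5) formed a middle group in the same unit. *Chac1* (2582) and *Trib3* (2399) were lowest. Of the 9 pairs of neighbours in this order, 3 lay further apart than the larger of their spreads over the libraries: *Atf4* and *Psat1*, *Phgdh* and *Atf5*, and *Mthfd2* and *Chac1*. The order within the other 6 pairs was not beyond that spread.

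**Figure D1:**
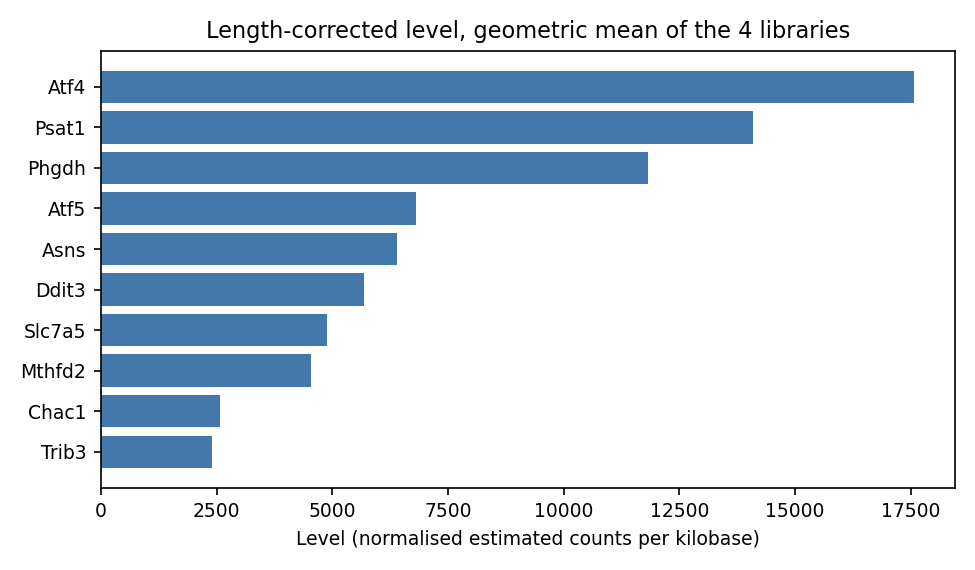
Level of each of the 10 genes on the x axis, in normalised estimated counts per kilobase of transcript, as 1 bar for each gene and the geometric mean over all 4 libraries. *Atf4*, *Psat1* and *Phgdh* have the longest bars, at 11813.5 per kilobase or more, and *Chac1* and *Trib3* the shortest, at 2582 or less.

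*Atf4*, the transcription factor at the head of the response, was represented by ENSMUST00000109605.4 on chromosome 15 (80255184 to 80257541, plus strand). Its level was 30308 normalised estimated counts, the 244th highest of all genes. Its spread was 0.19 log2 units, close to the median of 0.20 among transcripts of similar level, defined as those within 0.5 on the natural log scale. The highest library was at least 1.26-fold and at most 1.38-fold above the lowest, so the KD and WT means of *Atf4* differed by no more than 1.26-fold. The 594-base leader annotated for this transcript held 3 ATG codons. Reading frames from 2 of them closed within the leader, and 1 ran into the coding sequence in another frame, the arrangement for which translational control of *Atf4* is known.

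*Atf5* encodes a related bZIP factor that is also induced by translation. Its leading transcript ENSMUST00000047356.10 on chromosome 7 (44812256 to 44816658, minus strand) had 11176 normalised estimated counts, 90.7% of the gene. The other, ENSMUST00000107893.8, starts 1000 bases further downstream, encodes the same protein of 283 residues and made up 9.26%. The spread was 0.17 log2 units for the leading transcript and 0.36 for the other, with the latter above 83.6% of transcripts of similar level. The KD and WT means could differ by no more than 1.22-fold for the leading transcript and 1.55-fold for the other. The leaders held 2 and 6 ATG codons, of which 1 and 2 opened a frame that overlapped the coding sequence. *Psat1* also had such a frame, 1 in each of its transcripts. In *Asns* and the main *Ddit3* transcript all frames from leader ATG codons closed within the leader. Leaders with such an overlapping frame were found in 18.5% of 25985 transcripts in the table with an annotated start codon, and leaders with any ATG in 52.9%.

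*Ddit3*, which encodes the stress factor CHOP, had 5052 normalised estimated counts in ENSMUST00000026475.14 on chromosome 10 (127290774 to 127296288, plus strand). Its spread was 0.57 log2 units, 3.40 times the median at similar level. The highest library was at least 1.97-fold and at most 2.62-fold above the lowest. The second identifier with this symbol, ENSMUSG00000116429.1, covers a transcript of 105 bases that lies wholly inside the main one, from its base 56, and encodes 34 residues. It ends before the main start codon, which follows a leader of 186 bases, and so corresponds to an upstream reading frame of *Ddit3*. All of its 31-base words (100%) also occur in the main transcript. Its level was 2.74 normalised estimated counts and its spread 3.13 log2 units, small beside the 5052 of the main transcript, and its reads cannot be told from those of the main transcript.

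*Trib3*, a pseudokinase that ATF4 and CHOP induce and that restrains them in turn, had 4861 normalised estimated counts in ENSMUST00000040312.6 on chromosome 2 (152337422 to 152344032, minus strand). Its spread was 0.57 log2 units, 3.43 times the median at similar level, and the highest library lay between 1.98-fold and 2.63-fold above the lowest. *Chac1*, which degrades glutathione, had 4227 normalised estimated counts in ENSMUST00000028780.3 on the same chromosome (119351229 to 119354381, plus strand). Its spread of 0.70 log2 units was the largest among the leading transcripts of the 10 genes, 4.24 times the median at similar level and above 99.1% of those transcripts. Its highest library was between 2.33-fold and 3.31-fold above its lowest. Neither gene had an ATG in its annotated leader. *Ddit3*, *Trib3* and *Chac1*, the genes of the later stress response, were thus at least 1.97-fold apart between their highest and lowest libraries. This was not particular to them, since the transporter gene *Slc7a5*, described below, was at least 1.99-fold apart.

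Among the 10 genes, the leading transcripts of the enzymes of amino acid and one-carbon metabolism varied less than those of *Ddit3*, *Trib3*, *Chac1* and *Slc7a5*. The lists described below gave no uniform contrast of this kind. Their median percentile of spread was 80.7 for other amino acid enzymes and 26.5 for serine and one-carbon enzymes. It was 44.5 for other stress targets. *Psat1*, the second enzyme of serine synthesis, had the highest level of the 10 genes, 36833 normalised estimated counts, of which ENSMUST00000025542.9 on chromosome 19 (15904678 to 15925059, minus strand) made up 99.2%. The spread of that transcript was 0.11 log2 units, above 19.1% of transcripts of similar level, and its KD and WT means differed by no more than 1.14-fold. The other *Psat1* transcript, ENSMUST00000162053.7, starts 437 bases downstream, encodes 367 in place of 370 residues and had 284 normalised estimated counts with a spread of 0.60 log2 units. The deposited technical variance, which holds errors of counting and of read assignment together, was 18.0% of its variance over libraries. For the leading transcript the share was 0.488%.

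*Mthfd2*, a mitochondrial enzyme of the folate cycle, had 9471 normalised estimated counts in ENSMUST00000005810.8 on chromosome 6 (83305691 to 83317606, minus strand). Its spread of 0.073 log2 units was the smallest of the 10 genes, 0.404 times the median at similar level. All 4 libraries lay within a factor of 1.13, and the KD and WT means differed by at most 1.09-fold. *Asns*, which makes asparagine from aspartate, had 12816 normalised estimated counts, 98.7% of them in ENSMUST00000031766.11 on the same chromosome (7675169 to 7693254, minus strand). The spread of that transcript was 0.23 log2 units, above 64.4% of transcripts of similar level, with KD and WT means no more than 1.32-fold apart. The minor *Asns* transcript, ENSMUST00000115542.7, starts 383 bases downstream, encodes the same 561 residues and had 162 normalised estimated counts with a spread of 0.62 log2 units.

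*Phgdh*, the first enzyme of serine synthesis, varied more than *Psat1*, which acts 1 step later. Its transcript ENSMUST00000065793.11 on chromosome 3 (98313170 to 98339990, minus strand) had 22363 normalised estimated counts and a spread of 0.37 log2 units, 1.90 times the median at similar level. The highest library was between 1.57-fold and 1.89-fold above the lowest, whereas the libraries of the leading *Psat1* transcript spanned no more than 1.21-fold. These ranges do not meet, so the libraries differed more in *Phgdh* than in *Psat1*.

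*Slc7a5*, the light chain of a transporter for large neutral amino acids, had 17161 normalised estimated counts in ENSMUST00000045557.9 on chromosome 8 (121881150 to 121907694, minus strand). Its spread was 0.57 log2 units, 2.95 times the median at similar level, and the highest library was between 1.99-fold and 2.64-fold above the lowest. The technical variance was 0.0341% of its variance over libraries and at most 4.35% in the leading transcript of any of the 10 genes. Counting error and read assignment are not separated in these shares.

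**Figure D2:**
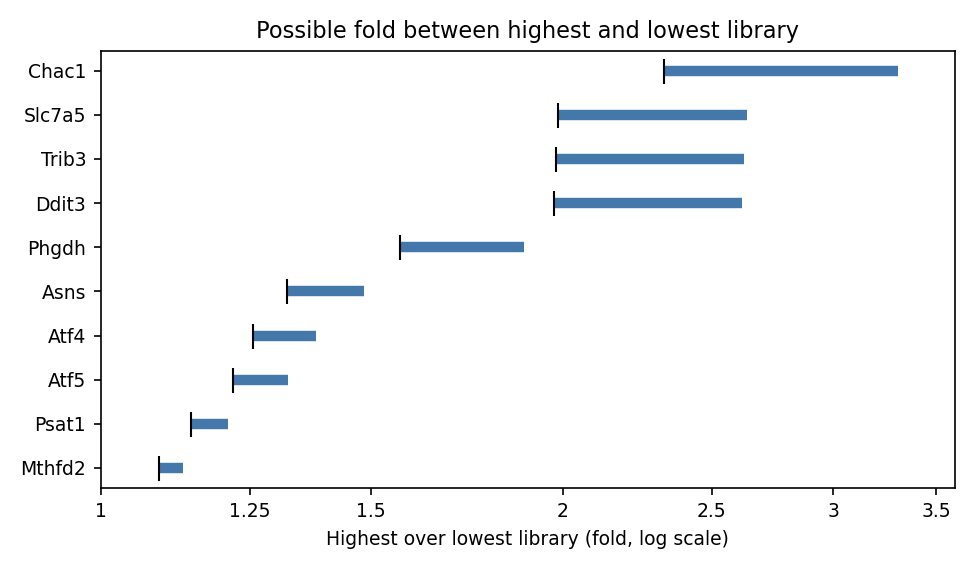
Fold between the highest and the lowest of the 4 libraries for the leading transcript of each gene, on a log axis. Each bar spans the values that the deposited variance allows, and the tick at its left end is also the largest possible fold between the KD and WT means. *Chac1*, *Slc7a5*, *Trib3* and *Ddit3* start at 1.97 or above, and the bars of *Mthfd2*, *Psat1*, *Atf5* and *Atf4* end at 1.38 or below.

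Against all transcripts of similar level, 4 of the 10 leading transcripts had a spread above the 90th percentile: *Chac1*, *Trib3*, *Ddit3* and *Slc7a5*. Among the leading transcripts of all genes this share was 5.59%. Among the 2862 genes with a level of at least that of *Chac1*, the lowest of the 10, it was 9.71%, and among all transcripts it was 9.9%. The members nearest to this threshold were *Phgdh* below it, at the 87.5th percentile, and *Slc7a5* above it, at the 97.1st. The other 5 genes lay between the 10.6th percentile for *Mthfd2* and the 64.4th for *Asns*. The spread thus differed widely among the 10 genes. The share was not tested, since genes are not replicates. The members, the lists below and the 90th percentile were also chosen with earlier results of these data known.

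**Figure D3:**
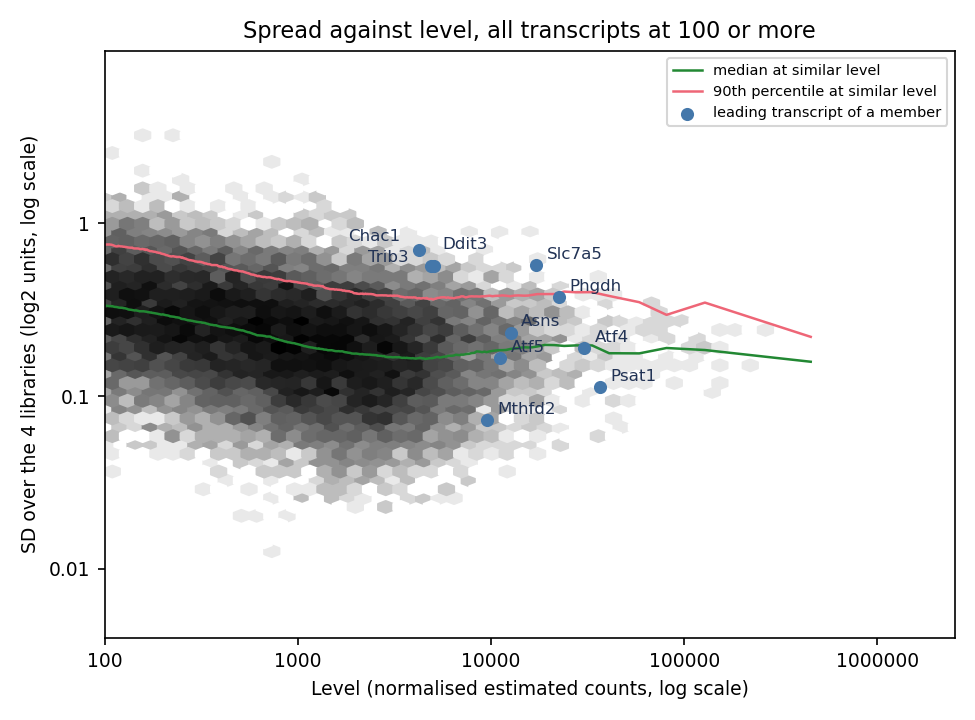
Spread over the 4 libraries in log2 units against level in normalised estimated counts, both on log axes, for all transcripts at 100 or more (grey, darker where more transcripts fall) and for the leading transcripts of the 10 genes (blue). The lines give the median and the 90th percentile at similar level, and *Chac1*, *Trib3*, *Ddit3* and *Slc7a5* lie above the upper line.

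Other genes of the pathway were taken from textbook lists by role, and 55 of 59 symbols were in the table. *Gcn1* was found under its older symbol *Gcn1l1*, and *Atf3*, *Cbs* and *Vldlr* were not found. Among their leading transcripts, 10 (18.2%) had a spread above the 90th percentile at similar level. Of 9 genes for eIF2 and its kinases and phosphatases, 2 passed: *Ppp1r15a*, which encodes GADD34, the stress-induced subunit that reverses eIF2α phosphorylation, with a spread of 0.58 log2 units, and *Eif2ak2*, the kinase PKR that senses double-stranded RNA, with 0.54. The other kinases, *Eif2ak1*, *Eif2ak3* and *Eif2ak4*, had spreads of 0.074, 0.094 and 0.14 log2 units. In this list *Eif2s1*, which encodes eIF2α itself, had the highest level with 15277 normalised estimated counts, and *Eif2ak3*, which encodes PERK, the lowest with 1474.

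Among 11 amino acid transporters, 3 were above the 90th percentile. They were *Slc7a11*, the cystine transporter, with a spread of 0.62 log2 units, *Slc6a9*, a glycine transporter, with 0.47, and *Slc7a1*, a transporter of cationic amino acids, with 0.45. *Slc3a2*, the heavy chain that pairs with *Slc7a5*, had a spread of 0.38 log2 units, at the 89.3rd percentile. *Slc38a2* was the highest of the list with 24323 normalised estimated counts and a spread of 0.087 log2 units, and *Slc7a8* the lowest with 4.19. The spread of *Slc7a5* thus exceeded that of its partner, though the highest-to-lowest folds that the variances allow, from 1.99 for *Slc7a5* and up to 1.92 for *Slc3a2*, lay close together.

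In the serine and one-carbon list, 1 of 9 genes passed: *Shmt2*, the mitochondrial enzyme that turns serine into glycine, with a spread of 0.39 log2 units, barely past the 90th percentile, and the highest level of the list, 19471 normalised estimated counts. *Psph*, the last enzyme of serine synthesis, had a spread of 0.30 log2 units, and *Mthfd1* and *Aldh1l2* had 0.047 and 0.052. *Mthfd2l*, a paralog of *Mthfd2*, was the lowest of the list with 744 normalised estimated counts. Of 7 other amino acid enzymes, *Bcat1*, of branched-chain amino acid metabolism, and *Got1*, the cytosolic aspartate transaminase, passed with spreads of 0.60 and 0.43 log2 units. *Aldh18a1*, of proline synthesis, was the highest of these with 12229 normalised estimated counts and *Glul*, glutamine synthetase, the lowest with 1019.

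Of 10 other stress targets, 1 passed: *Eif4ebp1*, which encodes the translation repressor 4E-BP1, with a spread of 0.54 log2 units. *Sesn2*, *Herpud1*, *Xpot*, *Ddit4*, *Pck2*, *Stc2* and *Nupr1* had spreads of 0.073 to 0.17 log2 units, below the median of transcripts of similar level in each case. *Ddit4* had the highest level of this list with 13901 normalised estimated counts, and *Gdf15* the lowest with 2.92. None of the 6 bZIP partners in the table passed. Their levels ran from 1434 normalised estimated counts for *Cebpb* to 6144 for *Nfe2l2*, and their spreads from 0.077 log2 units for *Cebpg*, which encodes a dimer partner of ATF4, to 0.32 for *Atf2*. Among 6 paralogs, *Trib2* passed with a spread of 0.41 log2 units and had the highest level with 6231 normalised estimated counts, whereas *Trib1* had 0.062 and *Chac2* 0.40, the latter at the 79.3rd percentile. *Slc7a8* was again the lowest.

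**Figure D4:**
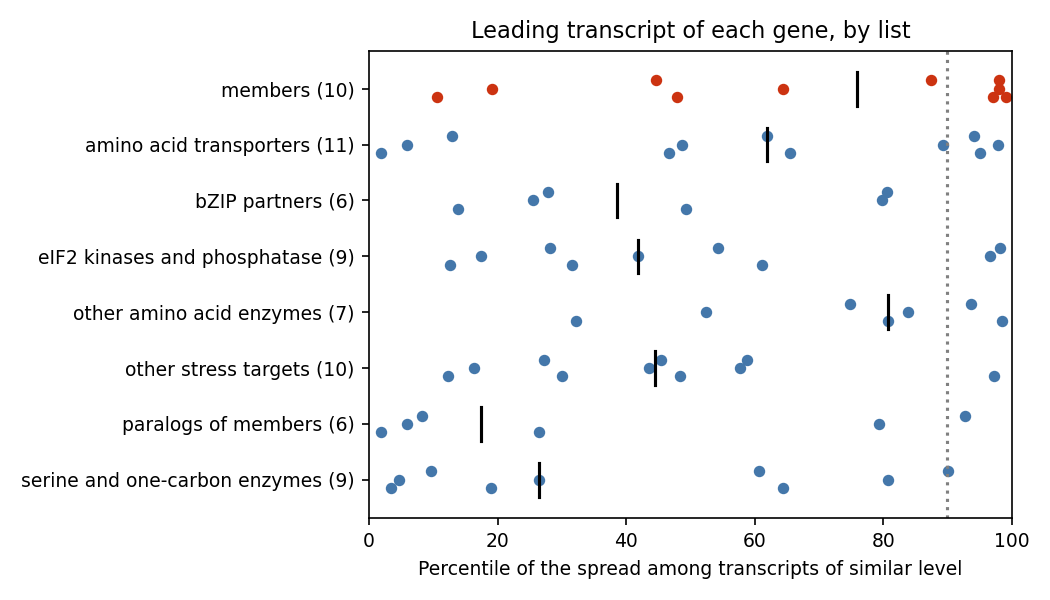
Percentile of the spread of each gene's leading transcript among transcripts of similar level, on the x axis, with 1 point for each gene, 1 line for each list and its number of genes in brackets. *Slc7a6*, *Slc7a8* and *Mthfd2l* stand in 2 lists. Black bars mark medians and the dotted line the 90th percentile, which 4 of 10 members (red) and 10 of 55 other pathway genes passed.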

How the data were processed

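Libraries from a stranded mRNA kit, 2 KD and 2 WT, were assigned to groups from their labels. Adapters were trimmed (BBDuk), transcripts quantified (Kallisto) and the estimates processed in Sleuth by the authors. The deposited means are on the natural log scale, taken as ln of estimated counts divided by a size factor plus 0.5, the default of Sleuth. The variances over libraries and the technical variances are on the same scale. The index transcriptome and the filter on low counts are not given in the sources used here. Further columns, and the gene table, hold effects, standard errors, p-values and q-values of the KD to WT comparison by likelihood ratio and Wald tests, and none was used.

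Levels were exponentials of the means minus 0.5, summed for each gene identifier. Of the transcripts, 98.6% matched GENCODE M21 (GRCm38), which gave positions, lengths and leaders. Limits between libraries follow by algebra from the variance of any 4 values, and simulated data checked only that they were calculated correctly. Spreads were ranked among transcripts within 0.5 on the natural log scale. Python 3.11.15 and pandas 2.3.3 were used. The replicates carry no statement of separate cultures in their labels beyond a number. Members, lists and the 90th percentile were chosen with earlier results of these data known. The named genes are all 10 members and the highest and lowest gene of each list, and others, named for their spread or function, were chosen after their values were seen. The planned test of KD against WT was not run, because no values of single libraries were used.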

Additional observations from a re-analysis of the deposited data

How the results depend on the processing

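Of 55 alternative values, 52 moved by less than the spread between libraries or, for spreads, ranks and counts, by less than 1.5 times. Most of these settings left little room to move, so this number does not measure robustness. The highest transcript alone gave an unchanged level wherever a gene had 1 transcript. Removing the technical variance took away at most 4.35% of a variance, and gene percentiles were too high to change easily by 1.5 times. Subtracting 200 bases from each length moved the level per kilobase by more than the spread between libraries for *Atf5* (7659), *Psat1* (15258) and *Mthfd2* (5024). The other 7 of 10 genes stayed within their spread. Among them *Ddit3*, with a transcript of only 890 bases, had the largest relative change, from 5677 to 7322. It then stood above *Asns* (7115), which reversed the order of these neighbours. The 4 genes above the 90th percentile of spread remained above it without the technical variance. In settings chosen after seeing the data, the same 4 remained with similar level defined as within 0.25 or within 1 on the natural log scale and with the 95th percentile, and *Phgdh* joined them at the 80th. No library could be left out in turn and no paired analysis was possible because the columns used carry no value for single libraries or replicate numbers. Depth was unknown, so no interval for counting error is given.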
